A study of Mus musculus with 11 samples.

Results

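The comparison described here is between HA-MacroH2A2 chromatin in mouse ES cells after 6 h and after 12 h of doxycycline (Dox), which are 2 of the 11 ChIP-Seq libraries of the series, chosen by their sample labels. Both come from a KH2-derived ES line (129 X C57bl/6 background) that carries M2rtTA at ROSA26 and a TetO-driven, HA-tagged MacroH2A2 cDNA (HA-Macro) downstream of Col1a1, so that Dox at 2 μg/mL starts synthesis of tagged histone. The cells were cycling asynchronously, feeder MEFs were depleted by pre-plating, and chromatin was precipitated with an anti-HA antibody (Abcam ab9110). The same line without Dox gives the anti-HA background, and the series also holds HA-Macro libraries at 6 h and 12 h from MEFs, HA-H3.3 from ES cells at 6 h, and anti-MacroH2A2 from ES cells. The authors saw faint promoter signal without Dox and proposed leaky expression, or else artifactual recovery of open chromatin, as its source. A level below background is thus a smaller share of reads than in that library, not an absence of tagged histone. Each time point has 1 library, so that there is no spread between replicates and no test, and every interval below is a 95% exact (Clopper-Pearson) interval that covers counting error only. ChIP gives no expression level, and the identity of the cells was therefore not checked on marker genes.

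MacroH2A2 is a histone variant in which an H2A-like histone fold is joined to a large macro domain. It is best known from transcriptionally quiet chromatin, and in differentiated cells it is a barrier to reprogramming. In a pulse of tagged histone, the tag first reports where new histone is deposited, and later also where deposited histone is retained or replaced. The ratio of 12 h to 6 h therefore describes a change in the distribution of the tag over the genome, and it is silent on the total amount of tagged histone because levels are relative to the reads of each library. Fewer cells with the tag and less tag per cell cannot be told apart.

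The 6 h library holds 16224108 distinct intervals on chromosomes 1 to 19, the 12 h library 17153206 and the library without Dox 11381685. Nearly all intervals were 150 bp long, at 99.99997% in the 6 h library, 100% in the 12 h library and 99.9998% in the library without Dox. Repeated intervals made up 5.44% of the 6 h and 6.03% of the 12 h library and were counted a single time. Each interval was placed by its midpoint, and levels are in p.p.m. of the distinct intervals of the library. The 239 tiles of 100 kb with the top 1% of anti-HA reads without Dox were discarded, which held 2.45% of the 6 h and 2.41% of the 12 h reads.

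The sequences just upstream of 4 protein-coding TSSs are shown because these genes stand at the extremes of the comparison: the promoter of Ifltd1 was among those furthest higher at 12 h, and those of Ulk2, Ubn2 and Robo1 were among those furthest lower. Each is 300 bases of mm9, 5′ to 3′ toward the TSS on the strand of the gene, with every CG dinucleotide in capitals.
Ifltd1 chr6:145562840-145563139 (minus strand): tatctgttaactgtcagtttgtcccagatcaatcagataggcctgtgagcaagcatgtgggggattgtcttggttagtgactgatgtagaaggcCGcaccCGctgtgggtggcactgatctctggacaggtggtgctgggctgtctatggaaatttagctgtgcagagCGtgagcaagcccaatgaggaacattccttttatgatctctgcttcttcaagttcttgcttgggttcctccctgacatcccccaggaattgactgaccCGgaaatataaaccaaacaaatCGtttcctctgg
Ulk2 chr11:61668576-61668875 (minus strand): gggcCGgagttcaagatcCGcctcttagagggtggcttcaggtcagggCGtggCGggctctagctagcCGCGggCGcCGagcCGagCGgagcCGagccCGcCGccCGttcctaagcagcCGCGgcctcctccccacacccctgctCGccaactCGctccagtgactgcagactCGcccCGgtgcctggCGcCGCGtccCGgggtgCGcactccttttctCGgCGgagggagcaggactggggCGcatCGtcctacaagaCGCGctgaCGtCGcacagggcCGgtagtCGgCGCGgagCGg
Ubn2 chr6:38383625-38383924 (plus strand): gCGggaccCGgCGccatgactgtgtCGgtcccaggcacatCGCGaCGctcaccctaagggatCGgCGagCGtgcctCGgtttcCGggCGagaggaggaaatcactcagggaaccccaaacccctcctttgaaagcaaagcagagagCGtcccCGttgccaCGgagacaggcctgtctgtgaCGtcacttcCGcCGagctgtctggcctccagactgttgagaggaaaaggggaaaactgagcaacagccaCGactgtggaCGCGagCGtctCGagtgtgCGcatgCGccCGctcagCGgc
Robo1 chr16:72663094-72663393 (plus strand): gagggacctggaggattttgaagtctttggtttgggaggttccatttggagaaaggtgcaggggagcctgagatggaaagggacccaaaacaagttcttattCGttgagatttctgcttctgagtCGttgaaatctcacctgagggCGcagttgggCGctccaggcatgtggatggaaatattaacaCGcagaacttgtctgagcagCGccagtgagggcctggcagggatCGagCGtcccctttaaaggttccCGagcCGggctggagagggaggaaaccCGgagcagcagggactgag
The Ifltd1 promoter, higher at 12 h, held 5 CG dinucleotides in these bases, and the 3 lower at 12 h held 38, 28 and 11, against a median of 10 over 20795 protein-coding genes. At least 38 such dinucleotides were present in 4.48% of all these upstream regions and at least 28 in 12.6%, whereas at least 11 (Robo1) were present in 47.6% and at least 5 (Ifltd1) in 67%. These 4 genes were chosen for their values, and the count of CG dinucleotides is taken up over all promoters below.

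Averaged over the 20795 protein-coding TSSs outside the discarded tiles, HA-Macro formed a peak just downstream of the TSS at both time points, and the peak was lower at 12 h. The highest of the 100 bp bins lay with its center at +150 bp. There the log2 level over the mean from 4 to 2 kb upstream was 0.89 at 6 h, 0.63 at 12 h and 0.68 without Dox. Over the whole region within 600 bp of the TSS the same log2 level was 0.43 at 6 h, 0.18 at 12 h and 0.33 without Dox, so that at 12 h the average promoter stood less far above its own surroundings than the anti-HA background did. In the bin centered 150 bp upstream of the TSS, the 12 h level lay below the upstream mean (-0.21), while the 6 h level (0.07) and the background (0.19) lay above it.

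The difference between time points was deepest at the TSS itself and tapered to near 0 by 2 kb upstream. In the bin centered 50 bp upstream, 19965 reads at 6 h became 16457 at 12 h, a log2 ratio of -0.36 (-0.39 to -0.33). At 950 bp upstream the ratio was -0.11 (-0.14 to -0.08) and at 1450 bp upstream -0.05 (-0.08 to -0.02). The downstream side was broader, with -0.19 (-0.21 to -0.16) at 950 bp and -0.14 (-0.17 to -0.11) at 1550 bp, and the interval still lay below 0 at the end of the profile (-0.04 at 3950 bp). In MEFs, whose libraries are separate, the level within 600 bp of the TSS was 0.22 at 6 h and 0.08 at 12 h, and the ratio in the bin 50 bp upstream was -0.15. The difference between the cell types was not tested.

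**Figure D1:**
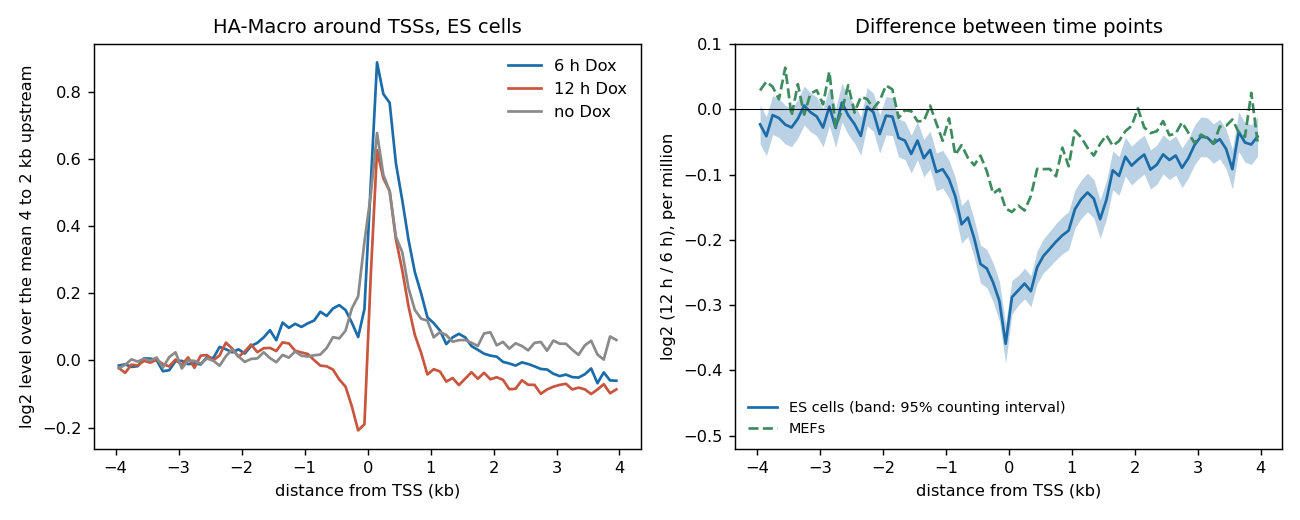
Left, log2 HA-Macro level in 100 bp bins around 20795 protein-coding TSSs relative to the mean from 4 to 2 kb upstream, in ES cells at 6 h, at 12 h and without Dox. Right, log2 ratio of 12 h to 6 h per bin with its 95% counting interval (band) in ES cells and the same ratio in MEFs (dashed). The ES ratio reaches -0.36 in the bin 50 bp upstream of the TSS and lies below the MEF ratio across the promoter.

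Promoters, taken as TSS ± 600 bp, held 291125 reads at 6 h and 256304 at 12 h, a pooled log2 ratio of -0.26 (-0.27 to -0.26), or 0.833 of the 6 h level. The median promoter held 13 reads at 6 h, 11 at 12 h and 7 without Dox. Relative to the library without Dox, pooled promoters stood at a log2 of 0.39 at 6 h and 0.13 at 12 h. Of the 20795 promoters, 13599 (65.4%) were lower and 7196 higher at 12 h after 0.5 read was added to each count.

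Single promoters are measured with few reads. Of 13647 promoters with at least 20 reads in the 2 libraries together, 4241 were lower by 1.5-fold or more at 12 h (31.1%) and 923 were higher (6.76%). Binomial counting alone, around equal levels, would put 13.2% and 13.4% past the same fold. The 95% counting interval lay below 0 at 1034 promoters (7.58%) and above 0 at 100 (0.733%). The SD of the ratios over these promoters was 0.576 on the log2 scale, where counting alone gives 0.530, so that counting accounts for most of the spread between single promoters.

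The promoter difference followed the number of CG dinucleotides within 600 bp of the TSS. The 3394 promoters with 0 to 9 had a log2 ratio of 0.04 (0.02 to 0.07) and the 3070 with 10 to 19 had 0.08 (0.06 to 0.10). The ratio was -0.13 (-0.15 to -0.11) with 20 to 39, -0.34 (-0.36 to -0.32) with 40 to 59, -0.43 (-0.45 to -0.41) with 60 to 79 and -0.42 (-0.43 to -0.40) in the 4987 promoters with 80 or more. CpG-poor promoters were thus slightly higher at 12 h and CpG-rich promoters lower. Relative to the library without Dox, the class with 0 to 9 lay below background at both times, at a log2 of -0.22 at 6 h and -0.18 at 12 h. The class with 10 to 19 stood at 0.25 and 0.33, that with 20 to 39 at 0.46 and 0.33, and that with 40 to 59 at 0.42 and 0.08. The class with 60 to 79 went from 0.45 above background at 6 h to 0.02 at 12 h. The class with 80 or more went from 0.58 to 0.16 and so stayed above background. In MEFs these 6 classes, from the fewest CG dinucleotides to the most, gave -0.02, 0.05, -0.03, -0.17, -0.20 and -0.26.

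HA-H3.3 at 6 h, from a separate ES library, marks promoters of high histone replacement and was used as an independent ranking. From the quintile of promoters with the fewest HA-H3.3 reads to the quintile with the most, the HA-Macro ratio was 0.08, -0.03, -0.30, -0.39 and -0.45, with 4159 promoters in each and intervals no wider than 0.05. CpG and HA-H3.3 move together, so the ranking was repeated inside CpG classes. Among promoters with under 20 CG dinucleotides the ratio was 0.11 (0.08 to 0.13) in the lowest quintile of HA-H3.3, -0.11 (-0.17 to -0.06) in the middle quintile and -0.31 (-0.43 to -0.18) in the 68 promoters of the highest quintile. Among promoters with 40 to 79 it was -0.29 (-0.42 to -0.17), -0.34 (-0.37 to -0.32) and -0.46 (-0.49 to -0.44) in the same order. In both of these CpG classes the promoters with most HA-H3.3 had the lowest ratio, and the other classes were not ranked in this way. Ranked instead by anti-MacroH2A2, whose Dox state the labels and the methods give in different ways, the quintiles gave -0.08, -0.16, -0.27, -0.35 and -0.32.

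**Figure D2:**
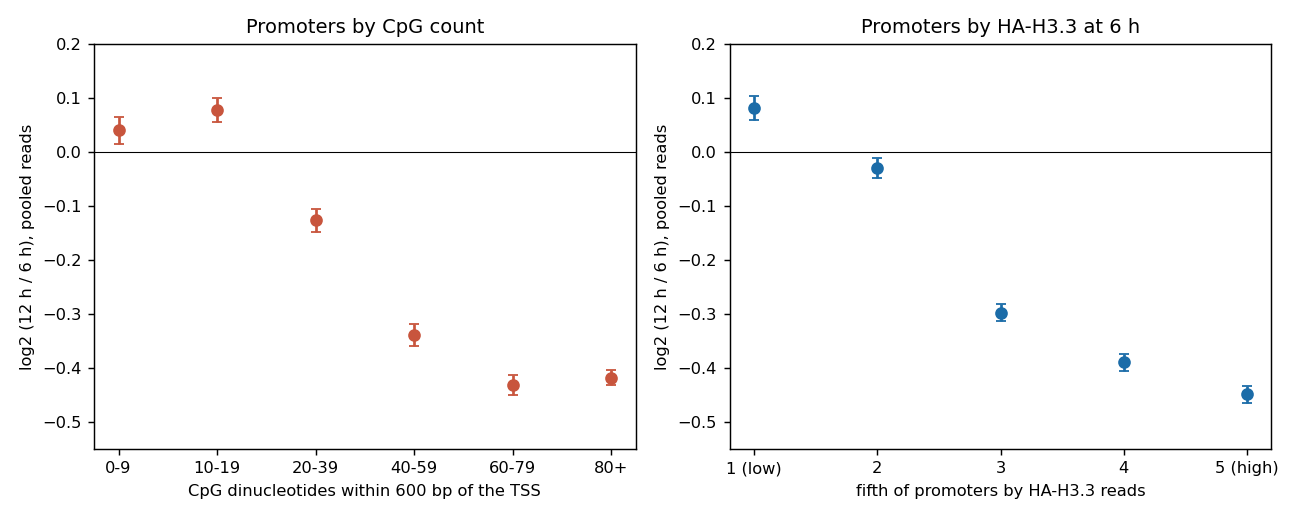
Pooled log2 ratio of 12 h to 6 h HA-Macro reads at protein-coding promoters in ES cells, by CG dinucleotides within 600 bp of the TSS (left) and by quintiles of HA-H3.3 reads (right), bars giving 95% counting intervals. The ratio passes from 0.08 to -0.43 with CpG and from 0.08 to -0.45 with HA-H3.3.

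The 10 promoters furthest lower at 12 h, ranked by the upper bound of the interval, held 56 to 149 CG dinucleotides within 600 bp of the TSS. The median over all 20795 promoters was 47, but only promoters with at least 20 reads were ranked. Zfp354b, with 36, had the same counts and interval as the last of the 10, Setdb1. Ulk2, an autophagy kinase gene at chr11:61589151-61668575, held 33 reads at 6 h, 6 at 12 h and 12 without Dox, a log2 ratio of -2.54 (-4.09 to -1.27). Ubn2, which encodes a subunit of the HIRA complex that deposits H3.3, held 34, 7 and 7, a ratio of -2.36 (-3.78 to -1.16). Both were well above the median promoter at 6 h and, in p.p.m., below background at 12 h. The ranking itself favours promoters with many reads at 6 h and few at 12 h, so these levels are no separate result.

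Robo1, a Slit receptor gene, held 20 reads at 6 h, 3 at 12 h and 7 without Dox. Actl6a, which encodes an actin-related subunit of BAF remodelling complexes, held 20, 3 and 6, and Setdb1, an H3K9 methyltransferase gene, held 21, 4 and 7. Foxj3, a forkhead transcription factor gene, held 34, 9 and 10. In p.p.m. the 12 h level was below background at each of these 4, which the ranking by few 12 h reads favours. The remaining promoters named by the rule were Pwp2, involved in ribosomal RNA processing (19, 3 and 5 reads), Eri2 (22, 4 and 12), and Drosha, the nuclease of primary microRNA transcripts (26, 5 and 8), whose TSS lies 158 bp from that of 6030458C11Rik (24, 4 and 7) so that these 2 share most reads.

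Over the bodies of the same genes, which the ranking did not use, the ratios were closer to 0. Setdb1 held 274 body reads at 6 h and 204 at 12 h, a log2 ratio of -0.51 (-0.77 to -0.24), Ubn2 646 and 534 (-0.36, -0.52 to -0.19) and Robo1 2382 and 2162 (-0.22, -0.30 to -0.14). Foxj3 also had an interval below 0 (-0.27, -0.45 to -0.08). In the other 6 of these 10 genes the interval of the body included 0, as over Ulk2 with 590 and 564 reads (-0.31 to 0.02).

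Among the promoters furthest higher at 12 h, Ifltd1, at chr6:145313654-145562839, held 3 reads at 6 h, 19 at 12 h and 8 without Dox, a log2 ratio of 2.58 (0.82 to 4.98). Cd6, a T cell surface receptor gene, held 7, 25 and 7. At both promoters the 6 h level was below background in p.p.m., and the 12 h level was above the other levels. The ranking favours this order of levels, since it selects few reads at 6 h and many at 12 h.

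Others were H28 (3 reads at 6 h and 17 at 12 h), Cpvl, a carboxypeptidase gene (5 and 21), 5730460C07Rik (5 and 21), the odorant receptor gene Olfr1335 (6 and 22), the exonuclease gene Dis3l2 (7 and 24) and Fblim1, a filamin-binding protein gene (11 and 32). Their bodies gave mixed values, with a log2 ratio of 0.25 (0.16 to 0.34) over Ifltd1, 0.23 (0.09 to 0.36) over Cpvl and 0.29 (0.07 to 0.50) over Cd6, but -0.35 (-0.59 to -0.11) over Fblim1. Of 13647 promoters ranked, the extremes are the ones counting error favours most, and no replicate is at hand to measure them again.

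Gene families were described by their pooled promoter reads. Values for a family are given beside the -0.26 of all promoters and, for CpG-rich families, the -0.43 and -0.42 of promoters with 60 to 79 and with 80 or more CG dinucleotides, and the numbers past 1.5-fold beside the 31.1% lower and 6.76% higher among all promoters with 20 reads. Counts of promoters lower or higher by any amount stand beside the 65.4% lower among all promoters. The share past 1.5-fold among promoters of like CpG count was not computed. Of the lists described, the furthest lower were genes of histones and of histone deposition. The lists were chosen with earlier results of these data known, so their order is a description and not an independent result. The lowest list includes Ubn2 (34 reads at 6 h and 7 at 12 h), already named among the extremes of all promoters. The 24 annotated genes for MacroH2A, H3.3, H2A.Z and their chaperones and remodellers went from 440 reads to 276, a log2 ratio of -0.75 (-0.98 to -0.53), and 13 of 20 with the minimum were 1.5-fold or more lower, none higher. H2afy2, which encodes MacroH2A2, held 18 reads at 6 h, 7 at 12 h and 7 without Dox. Daxx, an H3.3 chaperone gene, held 28, 14 and 7, Hira 27, 15 and 13, the remodeller gene Chd1 21, 9 and 7, and Ep400 22, 10 and 16. H3f3b (11, 11 and 4), Asf1b (11, 14 and 4) and Cabin1 (10, 13 and 11) were at or above their 6 h count. Their bodies together had a log2 ratio of -0.16 (-0.21 to -0.12).

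The 67 replication-dependent histone genes, which are transcribed in S phase from compact clusters, went from 1261 to 843 reads, a log2 ratio of -0.66 (-0.79 to -0.53), and 36 of 59 with the minimum were 1.5-fold or more lower and 2 higher. These values count reads of overlapping promoters more than once, so the interval is too narrow. Merged, 55 Hist1 promoters formed 40 regions and 11 of Hist2 and Hist3 formed 7. At 12 h the histone promoters stood below background (-0.35 against the library without Dox), from 0.31 above it at 6 h. With overlapping promoters merged within each histone class, although neighbouring genes of different classes can still share reads, H3 genes went from 237 to 118 reads (-1.09, -1.42 to -0.76), H4 genes from 183 to 115 (-0.75, -1.10 to -0.41), H2B genes from 375 to 261 (-0.60, -0.84 to -0.37) and H2A genes from 370 to 280 (-0.48, -0.71 to -0.25). All 11 H3 promoters were lower at 12 h. The counting interval of H3 lies apart from that of H2A, but it does not cover the spread between members. Members with at least 20 reads ran from -2.03 to -0.22 for H3 and from -1.40 to 0.70 for H2A, and the difference between classes was not tested. The lowest member of the whole list was Hist1h3i, with 27 reads at 6 h, 7 at 12 h and 8 without Dox. The highest was Hist1h1t, the testis linker histone gene, with 8, 15 and 7. The large cluster Hist1 (-0.70, -0.86 to -0.53) and the smaller Hist2 and Hist3 clusters (-0.71, -1.07 to -0.36) gave like values. Reads of near-identical histone genes were placed at random by the mapping, which makes single members uncertain.

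Genes for housekeeping machines were also lower at 12 h. Cytosolic ribosomal protein promoters went from 1229 to 867 reads, a log2 ratio of -0.58 (-0.71 to -0.46), with 30 of 60 lower by 1.5-fold or more and 1 higher. The small subunit (-0.63, -0.84 to -0.42) and the large subunit (-0.56, -0.72 to -0.40) did not differ beyond their intervals. Rpl8 held 24 reads at 6 h, 6 at 12 h and 7 without Dox, whereas Rpl39l, a testis-enriched paralog, held 5, 17 and 5. Respiratory chain genes had a ratio of -0.48 (-0.61 to -0.35), translation initiation factors -0.47 (-0.61 to -0.34), splicing factors -0.46 (-0.60 to -0.32), mitochondrial ribosomal proteins -0.41 (-0.53 to -0.28) and proteasome subunits -0.39 (-0.55 to -0.22). Lower by 1.5-fold or more were 22 of 61 respiratory chain, 23 of 50 initiation factor, 19 of 47 splicing, 22 of 49 mitochondrial ribosomal and 14 of 36 proteasome promoters, with 0 to 2 higher in each list. Their promoters held medians of 60 to 82 CG dinucleotides, and their ratios lay between -0.48 and -0.39. Within 300 bp of the TSS the respiratory chain list had -0.71 (-0.90 to -0.53) and the proteasome list -0.62 (-0.86 to -0.38). Cytosolic ribosomal (-0.05) and respiratory chain (-0.01) promoters lay at the background level at 12 h. Immediate early genes, which respond to growth signals within minutes, had -0.52 (-0.74 to -0.30), with Btg2 at 22 reads, then 8, against 12 without Dox, and Egr2 at 12, then 25, against 11. Zfp genes, a large group of zinc finger proteins, had -0.37 (-0.43 to -0.30).

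Pluripotency genes were also lower at 12 h. The 30 genes found of the 32 listed went from 537 reads to 398, a log2 ratio of -0.51 (-0.70 to -0.32). Past 1.5-fold, 8 of 21 were lower (38.1%, beside 31.1% of all promoters with 20 reads) and none higher. Sox2 held 25 reads at 6 h, 13 at 12 h and 5 without Dox. Fgf4, a target of Oct4 and Sox2, held 39, 21 and 17, Klf5 26, 11 and 14, the cofactor gene Dnmt3l 27, 14 and 8, and the methyltransferase gene Dnmt3b 35, 20 and 25. Promoters of other genes held about as many reads at both times, with Pou5f1 at 19, 18 and 11, Nanog at 13, 13 and 4 and Lefty1, which encodes a Nodal antagonist, at 31, 33 and 8. Utf1 was the highest of the list, at 18, 24 and 6. In all, 26 of the 30 promoters were lower and 4 higher at 12 h, where 65.4% of all protein-coding promoters were lower. Most of the single intervals overlap.

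The bodies of pluripotency genes had a pooled ratio of -0.25 (-0.31 to -0.20) where all gene bodies had -0.03. Bodies of cytosolic ribosomal protein genes (-0.25, -0.36 to -0.13), splicing factors (-0.20, -0.25 to -0.16), respiratory chain genes (-0.18, -0.23 to -0.13) and proteasome genes (-0.18, -0.24 to -0.12) were also below that value. The interval lay below 0 over Jarid2, a PRC2 cofactor gene (1557 and 1296 reads, -0.35, -0.45 to -0.24), over the 5-methylcytosine dioxygenase gene Tet1 (792 and 667, -0.33, -0.48 to -0.18), over Esrrb (1758 and 1681, -0.14, -0.24 to -0.05), over Zfp42 (96 and 60, -0.76, -1.25 to -0.28) and over Nanog (61 and 40, -0.69, -1.30 to -0.09). Dnmt3b, with 315 and 362, had an interval that included 0 (-0.10 to 0.34). Dppa2 held 6 promoter reads at 6 h and 0 at 12 h, and a count of 0 allows up to 3 reads, or 0.175 p.p.m., at this depth.

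**Figure D3:**
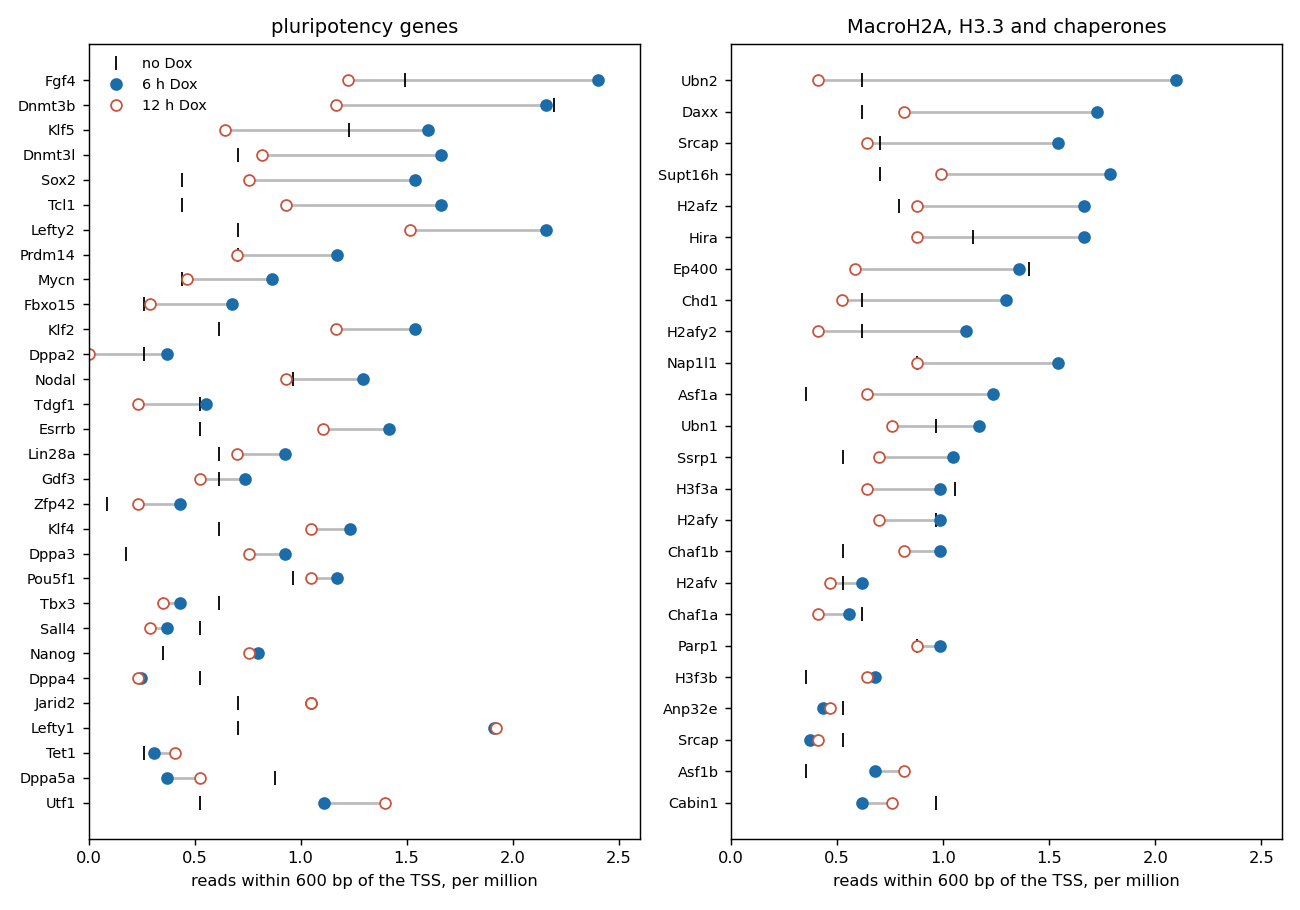
HA-Macro reads within 600 bp of the TSS, in p.p.m., for each gene of the pluripotency list (left) and of the MacroH2A, H3.3 and chaperone list (right): filled circles are 6 h, open circles 12 h and ticks no Dox, 1 library each. Genes are ordered by the difference between time points, with Fgf4 and Ubn2 at the top and Utf1 and Cabin1, higher at 12 h, at the bottom.

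Developmental genes lay nearer to the average. Transcription factor families outside Hox, such as Pax, Gata and Lhx, had a ratio of -0.28 (-0.39 to -0.18) and Hox genes -0.20 (-0.36 to -0.03). Within Hox, the Hoxa cluster went from 163 to 169 reads (-0.03, -0.35 to 0.29) and the Hoxd cluster from 140 to 107 (-0.47, -0.84 to -0.09), and these intervals overlap. Hox genes (0.27) and the other developmental factors (0.22) stayed above background at 12 h on the log2 scale. Imprinted genes, expressed from a single parental allele, had -0.08 (-0.27 to 0.12), or 0.00 (-0.28 to 0.27) within 300 bp, with the extremes Cdkn1c (36 reads, then 22) and Zrsr1 (18, then 32). Clustered protocadherins had -0.28 (-0.56 to 0.01) within 600 bp but 0.08 within 1000 bp of the TSS, so that they have no settled direction.

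Genes of fibroblasts and of the extracellular matrix differed between promoter and body, as all protein-coding genes did (-0.26 at promoters and -0.03 over bodies). The 27 fibroblast genes had a promoter ratio of -0.27 (-0.50 to -0.03), near that of all promoters, and a body ratio of 0.05 (0.01 to 0.09). Collagens had -0.29 (-0.46 to -0.12) at promoters, which became -0.17 (-0.31 to -0.04) within 1000 bp of the TSS, and 0.08 (0.06 to 0.10) over bodies. The body of Fbn1, the fibrillin gene, held 1135 reads at 6 h and 1410 at 12 h (0.23, 0.12 to 0.35), that of Col5a1 1068 and 1327 (0.23, 0.12 to 0.35), that of the PDGF receptor gene Pdgfrb 423 and 556 (0.31, 0.13 to 0.50) and that of Twist2 284 and 401 (0.42, 0.19 to 0.64). Col3a1 (255 and 211, -0.35, -0.62 to -0.08), Prrx1 (382 and 344, -0.23, -0.45 to -0.02) and Fn1 (536 and 494, -0.20, -0.38 to -0.02) lay on the other side. At the promoter of Thy1, a surface antigen gene, the 6 h library held 22 reads, the 12 h library 9 and the library without Dox 21.

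The families with the highest ratios had CpG-poor promoters, with medians of 4 to 13 CG dinucleotides. All promoters with 0 to 9 had 0.04 (0.02 to 0.07) and those with 10 to 19 had 0.08 (0.06 to 0.10). Keratin and epidermal genes went from 1409 to 1688 reads, a log2 ratio of 0.18 (0.08 to 0.28), with 14 of 65 past 1.5-fold higher (21.5%) and 4 lower (6.15%). All promoters with 10 to 19 CG dinucleotides, without a minimum of reads, had an upper quartile of 0.53. Of the keratin and epidermal genes, keratin-associated proteins of the hair had 0.25 (0.09 to 0.41), with 35 of 44 promoters higher, and keratins 0.13 (-0.03 to 0.28). The hair keratin gene Krt84 held 8 reads at 6 h, 24 at 12 h and 2 without Dox. Krt5, a keratin gene of basal epidermis, held 18, 8 and 5 at its promoter while its body held 22, 41 and 16. The 1081 odorant receptor genes went from 8039 to 9038 reads, a ratio of 0.09 (0.05 to 0.13), with 583 higher and 498 lower, although their promoters stayed below background (-0.31 at 6 h and -0.22 at 12 h). Cyp, Ugt and Serpin clusters had 0.05 (-0.06 to 0.17) and vomeronasal receptors -0.05 (-0.14 to 0.03), which became -0.14 (-0.27 to -0.01) within 300 bp of the TSS. Read numbers at these promoters were low, with a median of 7 at 6 h for odorant receptors and 6 for vomeronasal receptors, and their near-identical copies make single members uncertain.

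In MEFs the same lists lay in a narrower range. The histone list had -0.14 (-0.32 to 0.04), MacroH2A, H3.3 and chaperones -0.23 (-0.55 to 0.09), cytosolic ribosomal proteins -0.31 (-0.49 to -0.13), pluripotency genes -0.14 (-0.34 to 0.06), fibroblast genes -0.33 (-0.63 to -0.02) and keratins and epidermal genes 0.05 (-0.05 to 0.14), beside -0.12 for all promoters. The MEF library at 6 h held 10188067 distinct intervals, against 16224108 in ES cells, and the differences between the cell types were not tested.

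**Figure D4:**
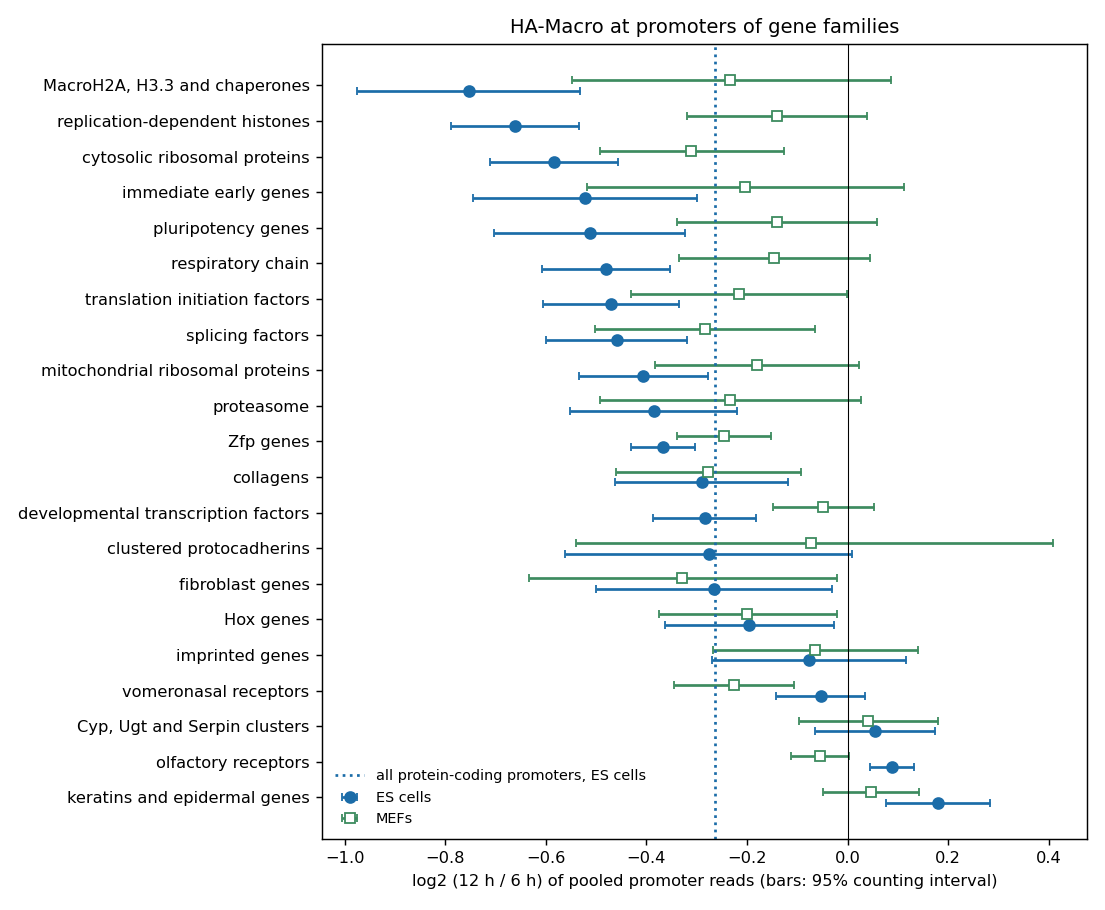
Log2 ratio of 12 h to 6 h HA-Macro reads summed over the promoters of each gene family in ES cells (filled circles) and MEFs (open squares), bars giving 95% counting intervals and the dotted line all protein-coding promoters in ES cells (-0.26). In ES cells the families run from -0.75 for MacroH2A, H3.3 and chaperones to 0.18 for keratins and epidermal genes.

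Gene bodies, counted from 2 kb past the TSS to the end of genes of at least 5 kb, held 6534637 reads at 6 h and 6748636 at 12 h, a log2 ratio of -0.03 (-0.04 to -0.03). With a median of 199 and 201 reads they are measured more closely than promoters. Of 13784 bodies with at least 100 reads, 142 were lower by 1.5-fold or more (1.03%) and 60 higher (0.435%), where counting alone would put 0.182% and 0.192%. The interval lay below 0 over 2366 bodies (17.2%) and above 0 over 1061 (7.7%). The ratio was -0.05 in genes of 5 to 20 kb and of 20 to 50 kb, -0.06 from 50 to 100 kb, -0.04 from 100 to 300 kb and 0.01 in the 503 longer genes.

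Among the bodies furthest lower at 12 h, Rybp, which encodes a subunit of Polycomb PRC1, held 405 reads at 6 h, 265 at 12 h and 326 without Dox, a log2 ratio of -0.69 (-0.92 to -0.47). Sept7, a septin gene, held 337, 219 and 309, Rasa1, a Ras GTPase-activating protein gene, 433, 295 and 404, and Naa30, an N-terminal acetyltransferase gene, 133, 75 and 99. In each of these 4 the level in p.p.m. was below background already at 6 h and further below it at 12 h. The others, with ratios between -1.06 and -0.73, were Cldn12, Cpsf4l, Avl9, Zfp239, Shfm1 and Dram2.

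Among the bodies furthest higher at 12 h, Chrna4, a nicotinic receptor subunit gene, held 192 reads at 6 h, 317 at 12 h and 152 without Dox, a ratio of 0.64 (0.38 to 0.91). Tmprss13, a membrane serine protease gene, held 219, 349 and 129, Cyp4x1, a cytochrome P450 gene, 118, 213 and 129, and Slc6a18, an amino acid transporter gene, 100, 173 and 80. Promoter and body went apart at Tmprss13, with 19 promoter reads at 6 h and 8 at 12 h (-1.33, -2.73 to -0.07), and at Anxa8, with 12 and 2 (-2.67, -5.87 to -0.50). Anxa8 (59 and 116 body reads), Spocd1 (63 and 116), Oas1f (88 and 158), Gm5431 (54 and 103), Gm10326 (153 and 251) and Bcl2a1d (39 and 77) complete the list, and the last 4 have close paralogs or are known only by a model number, so that their reads may be shared with other copies.

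To describe the rest of the genome, windows of 1 kb were classed by distance to the nearest protein-coding TSS. The log2 ratio was -0.25 (-0.25 to -0.24) within 0.5 kb, -0.18 (-0.18 to -0.17) from 0.5 to 1 kb, -0.08 (-0.09 to -0.08) from 1 to 2 kb and -0.03 (-0.03 to -0.02) from 2 to 5 kb. It passed 0 between 10 and 20 kb and was highest, at 0.03 (0.03 to 0.04), from 100 to 200 kb. Windows over 1 Mb from a TSS had -0.06 (-0.06 to -0.05). The mean window within 0.5 kb held 0.702 p.p.m. at 6 h, 0.592 at 12 h and 0.538 without Dox, and the mean window from 100 to 200 kb held 0.375, 0.383 and 0.399. The gain at 12 h was small per distal window and was not even, since windows from 500 to 1000 kb had -0.03 (-0.03 to -0.02). By GC content, windows over 5 kb from any TSS were higher at 12 h only in the classes from 40 to 55%. In windows over 5 kb from any TSS, those without a gene had 0.04 (0.04 to 0.04), introns -0.02 (-0.02 to -0.02) and windows with at least 200 coding bases -0.05 (-0.05 to -0.04).

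Base composition moved with the ratio. Among windows over 5 kb from any TSS, the ratio was -0.20 at a GC content of 30 to 35%, 0.10 at 45 to 50% and -0.25 at 65 to 75%, each with an interval no wider than 0.1. In MEFs the same classes gave -0.05, 0.03 and -0.11. Windows within 1 kb of a protein-coding TSS were lower than distal ones of the same GC content from 40% upward: -0.07 against 0.05 at 40 to 45%, -0.18 against 0.07 at 50 to 55% and -0.38 against -0.14 at 60 to 65%. Below 35% the 2 classes had -0.21 and -0.20. Averaged over bins of GC content, TSS windows lay 0.191 below distal windows on the log2 scale, where the pooled difference was -0.22 (-0.23 to -0.22). The part of amplification or sequencing in the dependence on GC content was not tested.

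**Figure D5:**
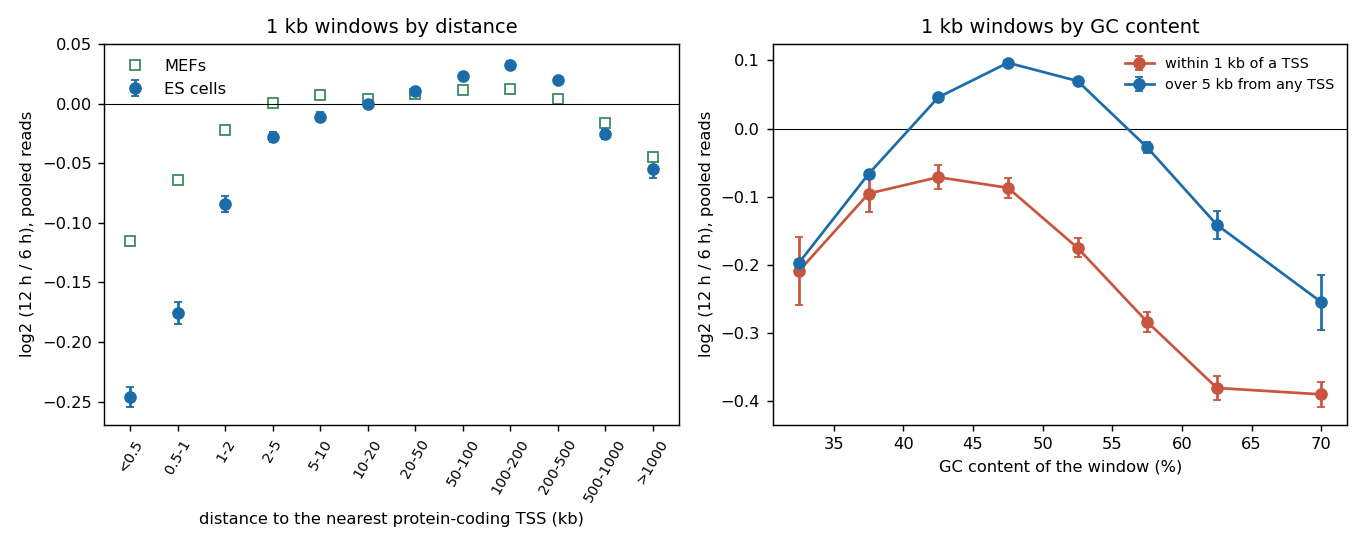
Pooled log2 ratio of 12 h to 6 h HA-Macro reads in 1 kb windows, by distance to the nearest protein-coding TSS in ES cells (circles) and MEFs (squares) on the left, and by GC content for windows within 1 kb of a TSS and over 5 kb from any TSS in ES cells on the right, bars giving 95% counting intervals. The ratio goes from -0.25 within 0.5 kb to 0.03 at 100 to 200 kb, and TSS windows lie below distal windows of the same GC content from 40% upward.

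Distal windows rich in HA-H3.3 were lower at 12 h, like promoters. Over 5 kb from any TSS, the 53065 windows with 16 or more HA-H3.3 reads had a ratio of -0.21 (-0.22 to -0.21), those with 8 to 15 had -0.06 (-0.06 to -0.05), those with 4 to 7 had 0.02 (0.02 to 0.03) and those with 1 to 3 had 0.05 (0.04 to 0.05). Windows with no HA-H3.3 read had 0.01 (0.01 to 0.02), so the ratio did not rise at every step. At a GC content of 40 to 50% alone, windows with 16 or more had -0.22 (-0.22 to -0.21) and windows with 4 to 7 had 0.07 (0.07 to 0.08). In MEFs the windows with 16 or more, as ranked in ES cells, had -0.03. Distal windows rich in anti-MacroH2A2 went the other way, with 0.07 (0.07 to 0.07) at 8 to 15 reads and 0.04 (0.03 to 0.05) at 16 or more, against -0.03 (-0.03 to -0.02) with no read. The median GC content of these classes was 47.8%, 55.6% and 39.7%, and they were not compared at a fixed GC content. All distal windows had -0.07 at 35 to 40% GC and 0.10 at 45 to 50%.

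At the scale of 100 kb the 2 time points were close. Over 23776 tiles with at least 100 reads (medians of 603 and 641), the log2 ratio ran from -0.48 to 0.48 with an SD of 0.131, where counting alone gives 0.0822. With the larger level at least 25% above the smaller, 107 tiles were higher (0.45%) and 194 lower (0.816%) at 12 h, against 0.0190% and 0.0180% from counting. With repeated intervals counted, 241 tiles were higher and 231 lower, so that the excess of lower tiles rests on the removal of repeats. Neighbouring tiles had like ratios (r = 0.32 over 23607 pairs), and this fell away at 0.5 Mb (r = 0.09) and 5 Mb (r = 0.03). Across tiles, which share their libraries and are not independent, the ratio had r = 0.27 with GC content, -0.11 with the number of protein-coding TSSs, -0.26 with HA-H3.3 and 0.26 with the same ratio in MEFs. For HA-H3.3 the Spearman coefficient was -0.14. From the quintile of tiles with the fewest HA-H3.3 reads to that with the most, the ratio was -0.002, 0.02, 0.05, 0.03 and -0.06.

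The ratio was higher in GC-rich tiles and lower in tiles with more protein-coding TSSs. Tiles without a protein-coding TSS had a pooled ratio of -0.04 at 36 to 40% GC, 0.04 at 40 to 44%, 0.08 at 44 to 48% and 0.09 (0.09 to 0.10) above 48%. Tiles with at least 2 such TSSs had -0.08, -0.04, -0.01 and -0.02 in the same classes. The 33 tiles with 10 or more TSSs had -0.09 (-0.11 to -0.07). Tiles without a protein-coding TSS can still lie within a gene or hold other annotated starts. Of the 417 such tiles above 48% GC, 6.00% were at least 25% higher.

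Among the tiles furthest lower at 12 h is one in the Hist1 cluster at chr13:23600001-23700000, with 16 protein-coding TSSs, where 1001 reads at 6 h became 784 at 12 h, a log2 ratio of -0.43 (-0.57 to -0.30), against 505 without Dox. The other tiles named as lower lie within Rapgef5 (857 and 651 reads), Tmem135 (754 and 572), Kcnt2 (920 and 712) and Etl4 (866 and 674). Those named as higher include chr6:145300001-145400000 at Ifltd1 (764 and 1087 reads, 0.43, 0.29 to 0.56), chr9:119600001-119700000 at the sodium channel genes Scn10a and Scn11a (668 and 946, 0.42, 0.28 to 0.57) and chr11:33500001-33600000 at Kcnip1 (707 and 994), together with tiles without a protein-coding gene at chr1:92200001-92300000 (642 and 926) and chr8:12000001-12100000 (886 and 1232). In MEFs the Hist1 tile had a ratio of -0.01 and the Scn10a tile 0.09.

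Some regions extended over many tiles. Runs of at least 5 neighbouring tiles beyond a log2 ratio of 0.1 numbered 103 on the higher side, with 678 tiles and a median GC content of 45.5%. On the lower side there were 54, with 312 tiles and 40.6%. The cut of 0.1 is close to the SD of 0.0822 that counting alone gives for a tile, and the number of runs from counting alone was not computed. Tiles entered a run by their own ratio, so the pooled ratio of a run is beyond 0.1 by definition and its interval is no test. The longest higher run covered 1600 kb at chr17:48600001-50200000, with Lrfn2, Mocs1, Daam2 and Kif6, where 11376 reads became 13836 (0.20, 0.17 to 0.24). Another, at chr11:111900001-113100000, held Sox9, a chondrocyte and testis determination factor, and 1 other protein-coding gene (8117 and 9700 reads, 0.18, 0.13 to 0.22). The longest lower run covered 1100 kb at chr15:16000001-17100000 around Cdh9, a cadherin gene (6797 and 6416 reads, -0.16, -0.21 to -0.11). Lower runs were of different kinds, since another covered 800 kb at chr11:97000001-97800000 with a GC content of 48.5% and 22 protein-coding TSSs, among them Kpnb1, Npepps, Mllt6 and Socs7 (9794 and 9178 reads, -0.17, -0.22 to -0.13).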

How the data were processed

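Anti-HA ChIP-Seq libraries from HA-Macro ES cells at 6 h and 12 h of Dox were compared, with 5 other libraries of the series as background, ranking or comparison. The remaining 4 libraries were not used here. The authors collapsed identical reads but kept how often each occurred, and their levels around TSSs summed these occurrences. They aligned the unique sequences with Bowtie (1.0 in the submitters' processing notes, build mm9) allowing at most 1 mismatch. They kept 1 random location for multimappers and extended reads. Levels from distinct intervals, as used here, are thus a different measure from theirs. The deposited files hold chromosome, first and last base of each mapped interval, without counts, strand or scores. The length of nearly all intervals (150 bp in HA-Macro, 400 bp in HA-H3.3 and anti-MacroH2A2 libraries) was checked on the files.

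Distinct intervals on chromosomes 1 to 19 were counted by midpoint and scaled to the library total. TSSs (1 per gene, 34653 genes, 21418 protein-coding) came from the GENCODE vM1 annotation of mm9. Ratios are log2 of 12 h over 6 h with exact Clopper-Pearson intervals, computed with Python 3.11.15, numpy 2.4.6, pandas 2.3.3 and scipy 1.17.1. The computation was checked on simulated counts that held counting error only. Around equal levels, the variance of the real counts was 1.53 times that of counting for promoters with the minimum reads. It was 3.24 times for such bodies and 2.90 times for tiles, an excess that the simulated counts do not cover. PCR copies were not marked, so that intervals cover counting error only. Minimum reads were 20 for a promoter and 100 for a body or tile, and 0.5 was added where signs or medians over single genes are given. Windows with 100 or more undetermined bases were left out.

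Genes named are the 10 promoters and 10 bodies with the highest lower bound, and as many with the lowest upper bound, of the interval, 5 and 5 tiles by the same rule, the highest and lowest member of each family, and any member of the pluripotency, fibroblast and MacroH2A lists. Some of the genes this rule names are not reported here. The longest runs of tiles and their genes, and the subgroups of families, were chosen after their values were seen. The members and lists were chosen with earlier results of these data known. Of the pluripotency symbols Lin28 and Tfcp2l1, and of the imprinted genes Kcnq1ot1, were not matched, and Srcap matched 2 annotated genes. The alternatives were counting every interval, keeping the discarded tiles, centring on the median tile, other promoter widths and minimum reads, and 1 Mb tiles. Merging of overlapping promoters and the corrections for GC content were chosen after seeing the data.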

Additional observations from a re-analysis of the deposited data

Results flagged for a closer look

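The promoters of odorant receptor genes had ratios of opposite sign in the 2 cell types. In ES cells their log2 ratio of 12 h to 6 h was 0.0886 (0.05 to 0.13), from 8039 and 9038 reads, and in MEFs it was -0.0550 (-0.11 to 0.00), from 3861 and 7033 reads. The MEF interval reaches 0, each condition has 1 library, and the difference was not tested. These promoters held a median of 6 CG dinucleotides. All promoters with 0 to 9 also had opposite signs, 0.04 (0.02 to 0.07) in ES cells and -0.02 in MEFs. No other family with an interval apart from 0 in ES cells had the opposite sign in MEFs.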

How the results depend on the processing

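No paired analysis was possible because each time point has 1 library, and for the same reason no library could be left out. The pooled promoter ratio of -0.26 became -0.27 with every interval counted, -0.25 with the discarded tiles kept, -0.29 within 300 bp and -0.23 within 1000 bp of the TSS, and -0.25 with overlapping promoters merged. Gene bodies became -0.0365 with every interval counted. TSS windows minus distal windows became -0.23 with every interval, -0.22 with the discarded tiles kept and -0.19 within bins of GC content.

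Promoters past 1.5-fold were 923 higher and 4241 lower of 13647. They became 299 higher and 1371 lower of 3901 within 300 bp, 1293 higher and 4635 lower of 19015 within 1000 bp, 102 higher and 853 lower of 3069 with a minimum of 40 reads, and 2245 higher and 6158 lower of 20795 with no minimum, so that both the number tested and the share past the fold moved. Tiles at least 25% higher became 241 (from 107) and lower 231 (from 194) with every interval counted, and with 1 Mb tiles none of 2413 passed in either direction (0 higher and 0 lower). The SD across tiles became 0.139 with every interval, 0.0645 with 1 Mb tiles and 0.125 with the median of each GC decile subtracted. Centring on the median tile changed no direction. Of the 21 families, 18 stayed within their interval with promoters of 300 bp on either side and 20 with 1000 bp, and all stayed there under the other alternatives. Within 300 bp, respiratory chain genes became -0.71, proteasome genes -0.62 and vomeronasal receptors -0.14, and within 1000 bp protocadherins became 0.08; the cause was not tested. Depth limits single promoters, at a median of 13 and 11 reads, more than families or windows.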

Other observations

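The start regions of other kinds of genes were described in the same way, within 600 bp of the annotated start. Starts of lincRNA genes, which encode long intergenic RNAs, went from 17063 to 14417 reads, a log2 ratio of -0.32 (-0.36 to -0.29), and those over 5 kb from a protein-coding TSS had -0.24 (-0.29 to -0.19). Pseudogenes had 0.01 (-0.01 to 0.03), snoRNA genes -0.01 (-0.04 to 0.03), miRNA genes -0.04 (-0.07 to -0.01) and snRNA genes -0.06 (-0.10 to -0.02). At over 5 kb from a protein-coding TSS these became 0.03 (0.00 to 0.05), 0.06 (0.02 to 0.10), 0.00 (-0.04 to 0.03) and -0.06 (-0.10 to -0.02), so that snoRNA genes changed sign and the miRNA interval included 0. The lincRNA starts held a median of 46 CG dinucleotides and the pseudogenes 13. The 3′ ends of 12289 protein-coding genes, at over 5 kb from a TSS, went from 123507 to 123069 reads, a ratio of -0.09 (-0.10 to -0.07).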
